A study of Mus musculus with 33 samples.

Results

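The genes described here encode the molecular chaperones of the cytosol, the mitochondrion and the endoplasmic reticulum (ER), their co-chaperones and the protein disulfide isomerases, together with 3 transcription factors of the unfolded protein response. They were chosen by name: 39 mouse genes were listed, and every probe set annotated to one of these symbols or to an older name of it was taken, whatever its signal. Of the 39 genes, 38 had a probe set in the annotation used (Hsp90ab1 was not analysed here), with 60 probe sets among the 12422 that were not controls. The genes were counted in 5 classes: 14 cytosolic chaperones and co-chaperones (13 with a probe set), 8 subunits of the cytosolic chaperonin TRiC, 3 mitochondrial chaperones, 11 ER chaperones and isomerases, and 3 factors of the unfolded protein response.

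RNA of whole lung or whole liver of C57BL/6J mice was hybridised to 33 Affymetrix MGU74Av2 arrays, in 11 groups of 3. The livers came from fetuses of day 21 of gestation (F21) and from pups born into room air, at 2 h and 6 h. Lungs of the 10% oxygen arm were taken at F21 from dams kept in 10% oxygen for 12 h, and at 2 h and 6 h from pups born into 10% oxygen, and lungs of the room air arm at F21, 2 h, 6 h, 12 h and 24 h. No group carried a genetic change, no liver in 10% oxygen was analysed here, and the samples of a group are numbered 1 to 3 without a statement that they came from separate litters, so the p-values measure the spread between these arrays. In whole organs, fewer cells of a type and less RNA per cell cannot be told apart.

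Chaperones bind unfolded or partly folded proteins and keep them from aggregating, in cycles of ATP binding and hydrolysis that co-chaperones set in motion. Each compartment has its own set: Hsc70 and Hsp90 with their co-chaperones and TRiC in the cytosol, mortalin and the Hsp60 and Hsp10 chamber in mitochondria, and BiP, Grp94, the lectin chaperones calnexin and calreticulin and the disulfide isomerases in the ER, where secreted proteins fold. Damaged protein in the cytosol activates heat shock factor 1, which binds heat shock elements of inducible genes such as Hspa1a, whereas unfolded protein in the ER activates the unfolded protein response, whose factors Atf6 and Xbp1 act through ER stress elements and whose translational arm works through Atf4 and Ddit3. The liver before birth is a secretory organ and also makes blood cells, and alveolar type 2 cells of the lung secrete surfactant proteins.

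The regions around the start sites of the genes were searched for the elements of both responses. RefSeq windows of 300 bases, from 250 before to 50 after the start site on the GRCm38.p6 build, were at hand for 31 of the 39 genes, and both strands were searched for an ER stress element (CCAAT, any 9 bases, CCACG) and for a heat shock element (TTC, any 2 bases, GAA, any 2 bases, TTC, or its complement). The ER stress element was in 0.119% of all 32851 windows, and in the windows of 6 of the 10 ER genes that had one (Hspa5, Hsp90b1, Dnajc3, Calr, Canx and Pdia6) and in no window of another class. The heat shock element was in 0.603% of all windows and in those of Hsph1, Hspd1 and Hspe1. Hspd1 and Hspe1 lie head to head and their windows hold the same element. A shorter form of the heat shock element (GAA and TTC in either order, 2 bases apart) was in 15.1% of all windows and in those of 11 members, among them Hspa1a, Hspa1b, Fkbp4 and Dnaja1, none of which is an ER gene. A match describes the letters of the window and is no evidence of binding. The windows of the 3 ER genes that were lower in liver at 6 h, of Hsph1 from the cytosolic class and of Hspe1 from the mitochondrial class follow 5′ to 3′ along the gene, with the matched element in capitals, since their messages are followed through the rest of the text.
Hspa5 (chr2:34771840-34772139, plus strand): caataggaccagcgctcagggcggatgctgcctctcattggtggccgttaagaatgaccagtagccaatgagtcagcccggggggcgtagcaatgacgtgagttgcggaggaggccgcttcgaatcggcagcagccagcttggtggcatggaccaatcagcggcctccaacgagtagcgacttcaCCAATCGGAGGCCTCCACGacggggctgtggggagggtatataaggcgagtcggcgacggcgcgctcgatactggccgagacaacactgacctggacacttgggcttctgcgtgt
Hsp90b1 (chr10:86705395-86705694, minus strand): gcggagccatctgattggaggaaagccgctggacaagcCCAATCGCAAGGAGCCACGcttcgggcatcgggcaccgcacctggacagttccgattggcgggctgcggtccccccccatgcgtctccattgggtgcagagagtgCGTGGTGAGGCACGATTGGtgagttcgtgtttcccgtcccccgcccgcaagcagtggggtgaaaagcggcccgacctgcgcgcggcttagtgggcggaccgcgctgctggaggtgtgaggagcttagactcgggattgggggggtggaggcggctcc
Dnajc3 (chr14:118937682-118937981, plus strand): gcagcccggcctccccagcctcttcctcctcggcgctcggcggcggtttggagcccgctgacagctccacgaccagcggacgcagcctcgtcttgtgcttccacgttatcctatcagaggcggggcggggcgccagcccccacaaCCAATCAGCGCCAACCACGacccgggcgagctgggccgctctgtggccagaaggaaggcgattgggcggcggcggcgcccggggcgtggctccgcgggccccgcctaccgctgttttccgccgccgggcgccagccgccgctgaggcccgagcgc
Hsph1 (chr5:149636287-149636586, minus strand): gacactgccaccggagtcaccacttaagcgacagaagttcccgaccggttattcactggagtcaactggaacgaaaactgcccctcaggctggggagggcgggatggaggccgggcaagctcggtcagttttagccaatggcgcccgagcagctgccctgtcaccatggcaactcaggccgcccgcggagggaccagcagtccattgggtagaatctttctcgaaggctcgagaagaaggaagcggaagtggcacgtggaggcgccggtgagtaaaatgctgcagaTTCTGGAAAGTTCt
Hspe1 (chr1:55087898-55088197, plus strand): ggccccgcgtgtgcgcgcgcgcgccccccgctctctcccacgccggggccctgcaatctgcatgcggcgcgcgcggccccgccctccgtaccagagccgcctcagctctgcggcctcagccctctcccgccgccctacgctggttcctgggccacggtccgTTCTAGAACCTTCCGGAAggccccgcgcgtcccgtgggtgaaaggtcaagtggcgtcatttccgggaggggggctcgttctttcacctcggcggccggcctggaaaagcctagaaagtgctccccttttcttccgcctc

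Counted from the start site, with negative positions before it, the ER stress element lay at -65 to -47 in Hspa5 and at -105 to -87 in Dnajc3. The Hsp90b1 window held 2 copies, at -212 to -194 and, on the opposite strand, at -107 to -89. The heat shock element of Hsph1 lay past the start site, at 37 to 49. In the window of Hspe1, matches at -89 to -77 and, on the opposite strand, at -84 to -72 overlapped.

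Signals are MAS5 intensities, for which each chip was scaled to a mean of 100, and changes are differences of mean log2 signal with signals under 10 set to 10. A change was called at an adjusted p under 0.05 (limma, Benjamini-Hochberg over all probe sets that passed a filter on low signals), and each gene was counted once, by its brightest probe set. The 9 hepatocyte marker genes summed to between 110120 and 138973 in the livers and to at most 516 in the lungs, apart from replicate 2 of the F21 lungs in 10% oxygen, where they summed to 3172, and the 3 markers of alveolar type 2 cells summed to at least 21855 in every lung and at most 306 in every liver. The lungs in 10% oxygen stood apart in RNA quality: the Gapdh 3′:5′ ratio, which rises as RNA is degraded, was 1.21 to 9.40 on those 9 arrays, against 0.734 to 1.15 on the 15 arrays of lungs in room air, and was 1.30 to 1.86 on the liver arrays. Arrays of a group also correlated less in 10% oxygen (r = 0.725 to 0.811 across probe sets) than in room air (0.853 to 0.925) or liver (0.864 to 0.901). Oxygen and RNA quality therefore moved together in every comparison of 10% oxygen with room air. Calls of the members' brightest probe sets that ended in a fit with the ratio as a covariate are named as such. For dimmer probe sets, cell markers and genes of other lists that fit is not given here.

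Of the 38 genes, 31 passed the filter in lung, 30 in liver and 33 across both organs. Hyou1, an exchange factor of BiP, Calr, the lectin chaperone calreticulin, and Hspb1, a small heat shock protein, gave signals of 0.8 to 66.6, 0.9 to 64.5 and 1.9 to 50.0 over the 33 arrays, many of them under the floor of 10, and with Hspa1b and Dnajb9 they passed in no fit. No direction is given for any of these 5 genes by name, though counts over all 38 genes include them.

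After birth in the liver, chaperone messages were lower or did not pass the test, and none was higher. At 6 h, 6 of 30 tested genes were lower than at F21 (20%): Hsp90b1, Hspa5 and Dnajc3 of the ER class and Hspa8, Fkbp4 and Hsph1 of the cytosolic class. Among all probe sets tested in liver at 6 h, 1.84% were called and 0.949% were lower. At 2 h, 3 of 30 were lower (10%), Hspa8, Fkbp4 and Xbp1, where 0.913% of all probe sets were called and 0.263% were lower. Of all 38 genes, 30 had a log2 change below 0 at each of the 2 times, against 50.7% of all probe sets at 6 h and 51.7% at 2 h, and their median change was -0.45 at 6 h and -0.28 at 2 h. Without the 5 genes that passed in no fit, 25 of 33 lay below 0 at 6 h and 26 at 2 h, with medians of -0.49 and -0.28. Both times were set against the same 3 F21 livers.

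In lungs born into room air, 3 of 31 tested genes were lower at 2 h (9.68%), Hspa8, Fkbp4 and Hsp90b1, beside 4.24% of all probe sets called, and 1 gene, Atf4, was higher at 6 h (3.23%), beside 1.02%. No gene passed at 12 h, where 1.34% of all probe sets did, or at 24 h, where 0.577% did. At an unadjusted p under 0.05, limma counted 7 of the 31 genes at 12 h and 6 at 24 h, against 11.9% and 10.2% of all probe sets. In lungs born into 10% oxygen, Fkbp4 and Hsp90b1 were lower at 2 h than in F21 lungs of the same arm (6.45% of 31, beside 2.65% of all probe sets). At 6 h Hsp90b1 was lower and Hspa1a higher (6.45%, beside 6.31%). The share of members called at 6 h was thus near that of all probe sets. Set against F21 lungs in room air in place of their own arm, 8 members passed at 2 h and 7 at 6 h, beside 5.42% and 7.5% of all probe sets. Hspa8, Pdia4 and P4hb, which were already lower at F21 in 10% oxygen, are among them at both times, with changes at 6 h of -1.14, -2.79 and -1.21 against room air and -0.16, -1.22 and 0.10 against their own arm.

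Lungs in 10% oxygen were also set against lungs in room air of the same time. At F21, Hspa8, Pdia4 and P4hb were lower (9.68%, beside 7.13% of all probe sets). At 2 h, 6 genes were lower (Hsp90aa1, Dnaja1, Hspe1, Canx, P4hb and Xbp1) and Cct3 was higher (22.6%, beside 16.8%). At 6 h, 4 ER genes were lower (Hsp90b1, Pdia4, Pdia6 and P4hb) and Cct8 was higher (16.1%, beside 5.8%). With the Gapdh ratio as a covariate, a fit chosen after seeing the data, no member passed at F21 (6 of 31 at an unadjusted p under 0.05, beside 16.9% of all probe sets), 6 passed at 2 h and 3 at 6 h, where that fit called 2.47%, 12.3% and 3.88% of all probe sets. Other, dimmer probe sets of Hspa4, Fkbp4, Hspd1 and St13 also passed between the arms and are given with those genes. Markers of other cells differed between the arms as well: Lyz2 of macrophages was lower in 10% oxygen at F21, 2 h and 6 h (-2.83, -1.90 and -1.67, adjusted p = 0.000205, 0.00293 and 0.0192), and Scgb1a1 and Cyp2f2 of club cells were lower at F21 (-2.15 and -1.48, adjusted p = 0.0126 and 0.0326). At F21 the 7 macrophage markers summed to 415 to 601 in 10% oxygen, against 845 to 1725 in room air, and the 2 club cell markers to 219 to 1431, against 1555 to 3165. Over the 7 macrophage markers the median difference was -0.08 at F21, -0.34 at 2 h and 0.02 at 6 h, so Lyz2 does not stand for the list. The part of these cells in the members' differences was not tested. Before birth, liver was compared with lung in room air: 12 genes were higher and 1 lower of 33 tested (39.4%), where 28% of all probe sets were called and 11.9% were higher.

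**Figure D1:**
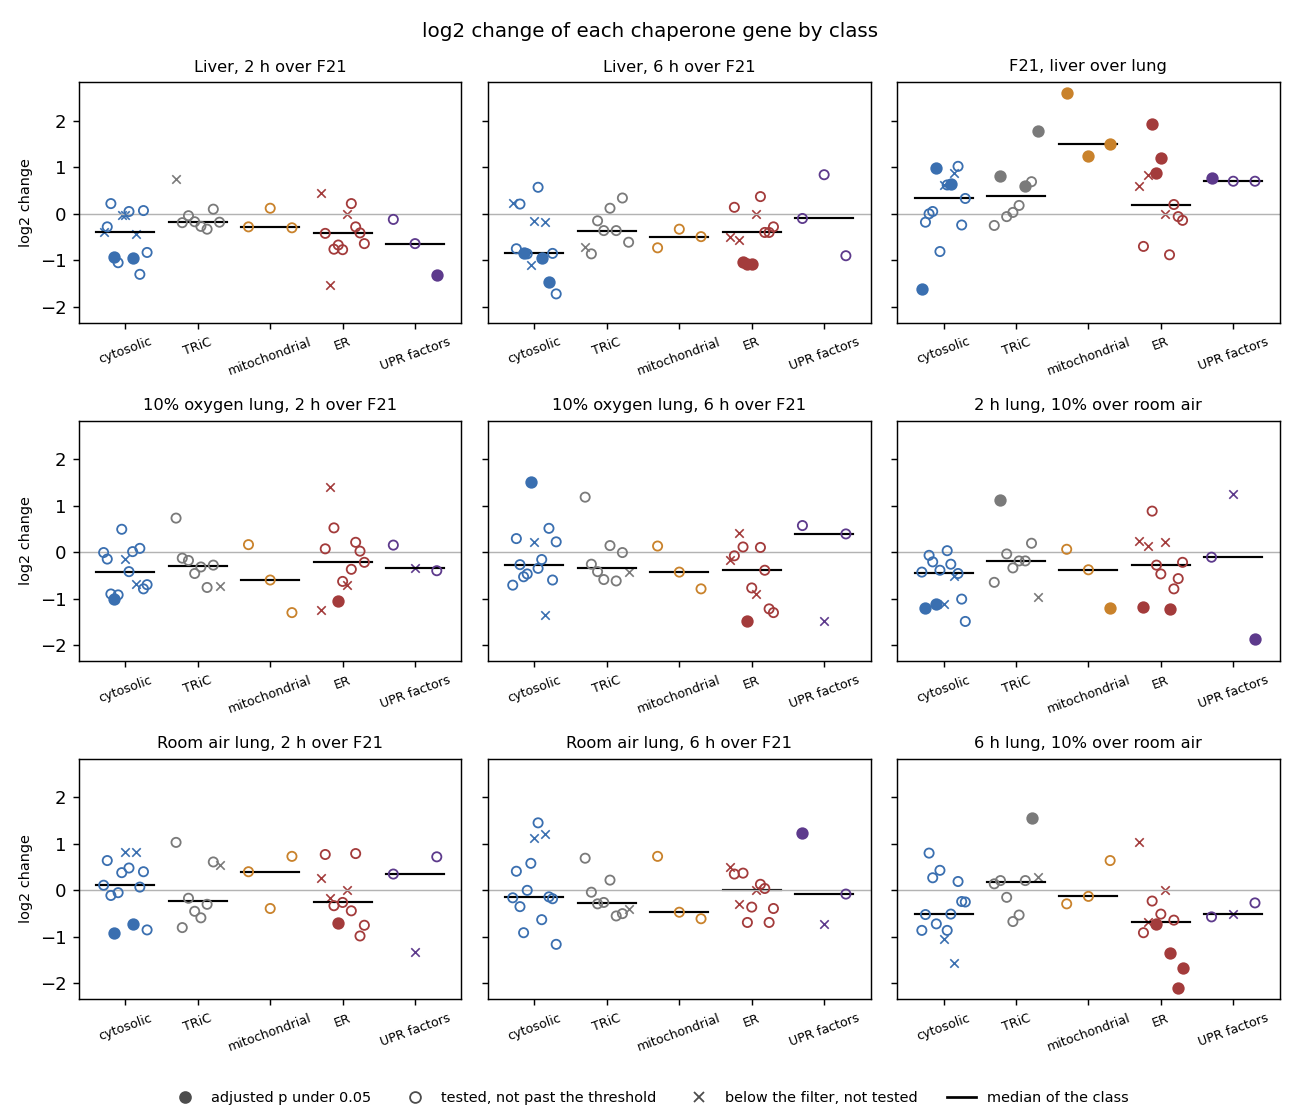
Log2 change of each gene (y axis, log2 units) by class (x axis) in 9 comparisons, 1 panel each. Filled points passed an adjusted p of 0.05, open points were tested and did not pass, crosses were below the filter on low signals, and the line is the class median. In liver at 6 h the filled points are 3 ER and 3 cytosolic genes, all below 0, and at F21 all 3 mitochondrial genes are filled and above 0 for liver over lung.

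The classes moved unevenly, and no test between classes was made. In liver at 6 h the median log2 change over all genes with a probe set was -0.84 for the cytosolic class, -0.40 for the ER class, -0.49 for the 3 mitochondrial genes and -0.36 for TRiC. At 2 h in liver these medians were -0.39, -0.42, -0.28 and -0.18. In lungs born into room air the class medians at 2 h were 0.11 for the cytosolic class, -0.26 for the ER class, 0.40 for the mitochondrial genes and -0.23 for TRiC, and over the 38 genes 20 lay below 0 and 18 above. In lungs born into 10% oxygen they were -0.42, -0.22, -0.60 and -0.30 at 2 h, with 27 genes below 0 and 11 above.

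Hsp90b1 encodes Grp94, the Hsp90 of the ER lumen, and it was the member called most often. Its signals in liver were 1745, 2019.9 and 1993 at F21, 965, 1355 and 1332 at 2 h and 758, 1099 and 894 at 6 h. All newborn livers lay below all F21 livers, and the change was -1.08 ± 0.17 (SE, adjusted p = 0.00497) at 6 h and -0.67 (adjusted p = 0.0967) at 2 h. The 6 h change kept its call whichever of the 6 arrays was left out (-1.22 to -0.95, highest adjusted p 0.0369), but without the filter on low signals no member passed in liver at 2 h or 6 h (10 and 14 of 38 at an unadjusted p under 0.05, all lower, beside 8.61% and 9.66% of all probe sets).

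In lungs of the 10% oxygen arm Hsp90b1 had signals of 999, 1139 and 1150.0 at F21, 517, 523 and 546 at 2 h and 368, 339.5 and 481 at 6 h. In room air the signals were 954, 1006 and 1193 at F21, 663, 660.2 and 609.5 at 2 h, 696, 713 and 555 at 6 h, 632, 879.9 and 847 at 12 h and 724, 834 and 683 at 24 h. In both arms every newborn lung was below every F21 lung. In 10% oxygen the change was -1.05 ± 0.17 (SE, adjusted p = 0.00165) at 2 h and -1.48 ± 0.17 (SE, adjusted p = 1.86e-05) at 6 h, and both calls held when any 1 array was left out. In room air it was -0.70 ± 0.17 (SE, adjusted p = 0.0206) at 2 h and -0.69 (adjusted p = 0.0514) at 6 h. The 2 h call in room air was lost without F21 replicate 3 (-0.61, adjusted p = 0.114) and without replicate 1 or 3 of the 2 h lungs (adjusted p = 0.0605 and 0.0942).

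Between 10% oxygen and room air, Hsp90b1 differed by 0.06 (adjusted p = 0.872) at F21, which did not pass. It was lower in 10% oxygen at 6 h, -0.73 ± 0.17 (SE, adjusted p = 0.0153), where its signals did not overlap with those in room air, and the covariate left it at -0.80 (adjusted p = 0.0342). That call was lost without replicate 1 or 2 of the 6 h lungs in room air or replicate 2 in 10% oxygen (adjusted p = 0.0675, 0.0701 and 0.0587). The test of whether the 6 h change itself differed between 10% oxygen and room air did not pass (-0.80 ± 0.24 SE, adjusted p = 0.313), nor did that of liver against lung in room air at 6 h (-0.39, adjusted p = 0.722).

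Hspa5 encodes BiP, the Hsp70 of the ER and a common marker of the unfolded protein response. Its signals in liver were 843, 1007 and 850.0 at F21, 439, 639.8 and 520.5 at 2 h and 317, 506 and 487 at 6 h. No newborn liver reached the lowest F21 liver, and the change was -1.07 ± 0.20 (SE, adjusted p = 0.0171) at 6 h and -0.77 (adjusted p = 0.109) at 2 h. The 6 h call was lost in 4 of 6 fits that left out 1 array: without F21 replicate 1, 2 or 3 (adjusted p = 0.0507, 0.0906 and 0.061) and without 6 h replicate 1 (-0.85, adjusted p = 0.0574).

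Lung Hspa5 gave 323, 406 and 373 at F21, 313, 236 and 180.4 at 2 h and 159.8, 278 and 225 at 6 h in 10% oxygen. In room air it gave 399, 307 and 495 at F21, 317, 410.0 and 273 at 2 h, 427, 282 and 237 at 6 h, 299.6, 417 and 356 at 12 h and 458, 348 and 279 at 24 h. The lungs in room air overlapped at all 5 times, while the newborn lungs in 10% oxygen lay below the F21 lungs of that arm. No Hspa5 change passed in lung, the smallest adjusted p being that of 6 h in 10% oxygen at -0.77 (adjusted p = 0.0948).

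Dnajc3, a J-domain partner of BiP, had signals in liver of 298, 274 and 183 at F21, 122, 164 and 154 at 2 h and 113, 138 and 109.8 at 6 h, and of 39.2 to 134 in every lung. The 6 h livers lay below the F21 livers, with a change of -1.04 ± 0.24 (SE, adjusted p = 0.0447), lost in 5 of 6 fits that left out 1 array (highest adjusted p 0.166). This value comes from a probe set that Affymetrix marks as incomplete, and of the other 3 probe sets of the gene 2 changed by -0.19 and -0.32 without passing and 1, below the filter, by 0.17. At F21 Dnajc3 was higher in liver than in lung, 1.94 ± 0.35 (SE, adjusted p = 7.23e-05), without overlap, and of the other probe sets 1 also passed (1.80, adjusted p = 0.0121).

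**Figure D2:**
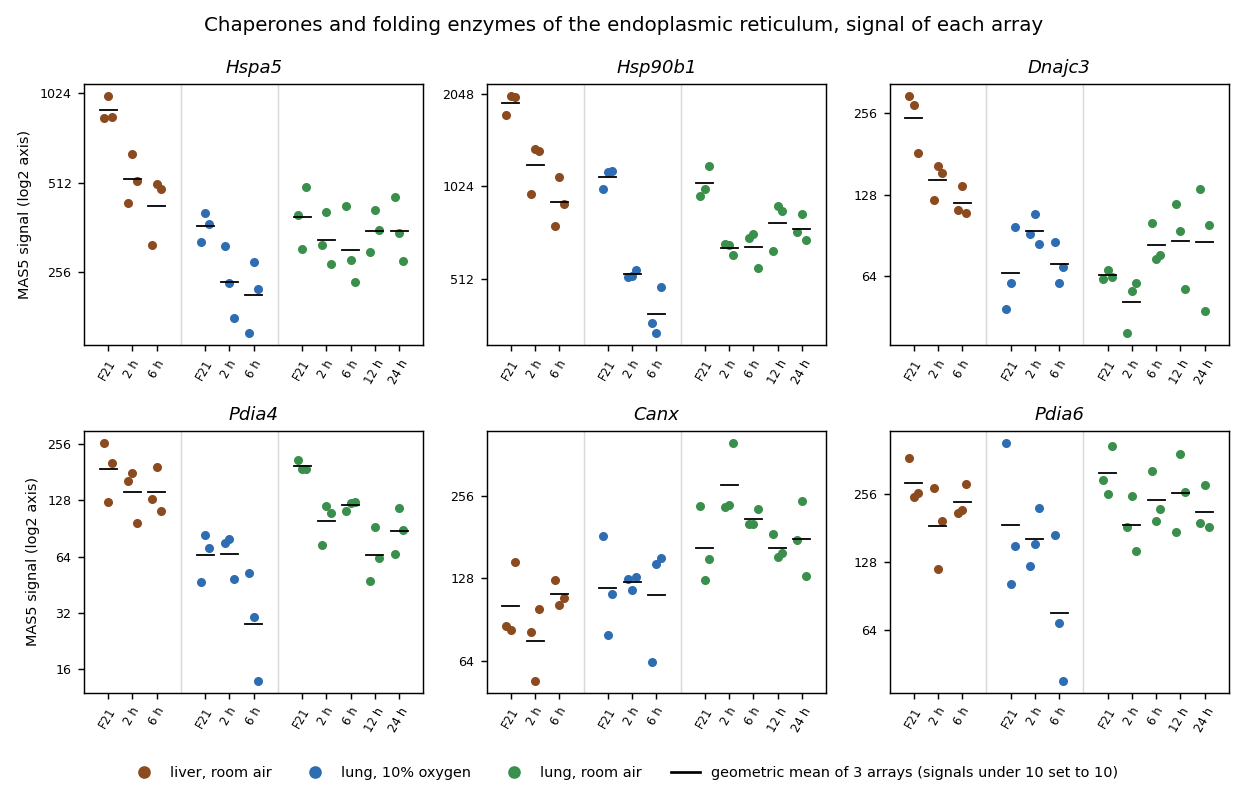
MAS5 signal of each array (y axis, log2 scale) for 6 ER genes across the 11 groups (x axis: liver, lung in 10% oxygen, lung in room air, each in order of time). Points are arrays and black lines geometric means of 3 arrays. Hsp90b1 falls in liver and in both lung arms, whereas the changes of Hspa5 and Dnajc3 after birth pass the test in liver at 6 h only.

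Of the 4 disulfide isomerases, Pdia4, P4hb and Pdia6 passed in a comparison of the lung arms and none passed in liver. Pdia4 had signals of 47, 83.5 and 71.3 at F21, 75.6, 79.2 and 48.6 at 2 h and 52.3, 30.4 and 13.9 at 6 h in lungs in 10% oxygen. In room air they were 209, 187 and 188 at F21, 73.9, 118 and 109.6 at 2 h, 112, 123 and 126 at 6 h, 47.5, 91.6 and 63.1 at 12 h and 65.8, 117 and 88.6 at 24 h. Every lung in 10% oxygen was below every lung in room air at F21 and at 6 h. Pdia4 was lower in 10% oxygen at F21, -1.57 ± 0.41 (SE, adjusted p = 0.0215), and at 6 h, -2.10 ± 0.41 (SE, adjusted p = 0.00478). With the Gapdh ratio as a covariate the F21 change was -1.56 (adjusted p = 0.141) and the call was lost at about the same size. The F21 call was also lost without replicate 1 or 2 in room air or replicate 1 in 10% oxygen (adjusted p = 0.0876, 0.0599 and 0.068). The 6 h call held whichever array was left out (-2.55 to -1.59) and with the covariate (-2.09, adjusted p = 0.0257). In room air all 12 newborn lungs lay below all 3 F21 lungs. The 12 h change there, -1.58 (adjusted p = 0.0545), did not pass in the fit of all lungs. It also missed the threshold with a floor of 1 (adjusted p = 0.0552), quantile normalization (0.074) and no filter on low signals (0.0939). The same held with a replicate block (adjusted p = 0.0586), the covariate (0.0531) and the study's own design after Benjamini-Hochberg adjustment (0.211). It passed in the fit of the lungs in room air alone (adjusted p = 0.0102) and in that of the 2 groups alone (0.0329). Array weights (adjusted p = 0.00543) and a pseudocount of 16 (-1.37, adjusted p = 0.0245) also gave a call. Liver Pdia4 changed by -0.40 (adjusted p = 0.643) at 6 h.

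P4hb, which is a disulfide isomerase and also a subunit of the collagen prolyl hydroxylase, was lower in 10% oxygen than in room air at all 3 times. Its log2 differences were -1.31 ± 0.36 at F21, -1.23 ± 0.36 at 2 h and -1.34 ± 0.36 at 6 h (adjusted p = 0.0285, 0.0229 and 0.0303). With the Gapdh ratio as a covariate they were -0.69, -0.68 and -0.82 and none passed (adjusted p = 0.472, 0.323 and 0.291), and each was lost in 3 or 5 of 6 fits that left out 1 array (adjusted p up to 0.182). Its probe set carries a suffix for relaxed design rules. Pdia6 was lower in 10% oxygen at 6 h, -1.66 ± 0.47 (SE, adjusted p = 0.0361), and also lost its call with the covariate (-0.47, adjusted p = 0.579) and in 5 of 6 fits that left out 1 array. A second probe set of Pdia6 was lower at 6 h than at F21 in 10% oxygen (-1.17, adjusted p = 0.0447). Pdia3 passed in no comparison as planned, and with the covariate it was lower in 10% oxygen at 2 h (-1.30, adjusted p = 0.0426).

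Canx encodes calnexin, the membrane-bound lectin chaperone. At 2 h its signals were 127, 116 and 129 in 10% oxygen, against 233, 236 and 398 in room air, with no overlap and a difference of -1.17 ± 0.34 (SE, adjusted p = 0.0217). That call was lost with the covariate (-1.06, adjusted p = 0.118), without 2 h replicate 3 in room air (-0.92, adjusted p = 0.132) and without 2 h replicate 2 in 10% oxygen (-1.13, adjusted p = 0.0579), and the gene's second probe set differed by -0.22. Canx in liver was 85.4, 83 and 146 at F21, 81.4, 54.1 and 99 at 2 h and 126, 102 and 109 at 6 h, with overlapping groups.

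Hspa8 encodes Hsc70, the constitutive Hsp70 of the cytosol. Liver signals were 1176, 1342 and 1428 at F21, 583, 705 and 765 at 2 h and 532, 934 and 635 at 6 h. Each newborn liver lay below each F21 liver, and the change was -0.95 ± 0.19 (SE, adjusted p = 0.0394) at 2 h and -0.95 ± 0.19 (SE, adjusted p = 0.0283) at 6 h. The calls were lost in 6 of 6 and 5 of 6 fits that left out 1 array, with changes of -1.03 to -0.84 and -1.17 to -0.77 (highest adjusted p 0.142 and 0.113).

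In lungs of the 10% oxygen arm Hspa8 had signals of 518, 416 and 360.0 at F21, 499, 399 and 399 at 2 h and 508, 359 and 307 at 6 h. In room air it had 829.9, 859 and 843 at F21, 468, 519 and 557 at 2 h, 610.0, 499.9 and 529.9 at 6 h, 531, 604 and 612 at 12 h and 547, 741 and 593 at 24 h. The F21 lungs in room air were the highest of all lungs, and the F21 lungs of the 10% oxygen arm overlapped the newborn lungs of both arms. Hspa8 was lower in 10% oxygen at F21, -0.98 ± 0.19 (SE, adjusted p = 0.00283), with the call held whichever array was left out, also without replicate 2, the array with hepatocyte message (-0.97, adjusted p = 0.0107). With the Gapdh ratio as a covariate the difference was -0.57 (adjusted p = 0.168). After birth into room air Hspa8 was lower at 2 h, -0.72 ± 0.19 (SE, adjusted p = 0.0304), a call lost without any 1 of the 6 arrays (-0.78 to -0.65, highest adjusted p 0.136).

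Fkbp4 encodes an immunophilin that works with Hsp90 on steroid receptors. Its liver signals were 533, 559 and 580.1 at F21, 313, 305 and 267 at 2 h and 368, 269 and 304 at 6 h. Lungs in 10% oxygen gave 468, 556 and 478 at F21, 213, 341 and 207 at 2 h and 238, 409 and 425 at 6 h. Lungs in room air gave 501, 527 and 586 at F21, 254, 375 and 246 at 2 h, 336, 341 and 205 at 6 h, 299, 356 and 314 at 12 h and 218, 294 and 316 at 24 h. In liver and in both lung arms every newborn organ was below every F21 organ. At 2 h the change was -0.92 ± 0.17 in liver, -1.01 ± 0.25 in lungs in 10% oxygen and -0.91 ± 0.25 in lungs in room air (log2, SE; adjusted p = 0.0189, 0.0308 and 0.0407). At 6 h it was -0.84 ± 0.17 (SE, adjusted p = 0.0239) in liver, and -0.91 (adjusted p = 0.0825) in lungs in room air. These 4 calls were lost in 4 or 5 of 6 fits that left out 1 array, with the direction kept and adjusted p up to 0.193. The probe set carries a suffix for probes shared within a sequence family, and a second, dimmer probe set of the gene gave 0.77 at 2 h in room air and -0.87 in liver at 6 h, neither past the test. That second probe set was lower in 10% oxygen than in room air at 2 h (-2.13, adjusted p = 0.00173), where the brightest gave -0.21 (adjusted p = 0.62).

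Hsph1, an Hsp110 that exchanges nucleotide on Hsp70, was named after its values were seen. Its liver signals were 160.3, 168 and 168 at F21, 66.2, 64.2 and 70.8 at 2 h and 37, 89.6 and 64.5 at 6 h, and every newborn liver was below the F21 livers. The change was -1.47 ± 0.33 (SE, adjusted p = 0.044) at 6 h and -1.30 (adjusted p = 0.101) at 2 h, and the 6 h call was lost in 5 of 6 fits that left out 1 array (-1.76 to -1.12). In the lungs its signals were 33.3 to 108.5 and no change passed.

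Hspa1a and Hspa1b encode the stress-inducible Hsp70. Hspa1a had signals of 59, 42.9 and 57.2 at F21, 59.6, 90.0 and 74.1 at 2 h and 120.1, 201 and 136 at 6 h in lungs in 10% oxygen. In room air it had 71.3, 81.6 and 69.8 at F21, 97.4, 106 and 86.7 at 2 h, 132, 86.9 and 118 at 6 h, 86.5, 49.3 and 63.1 at 12 h and 115, 66 and 103 at 24 h. In 10% oxygen all 6 h lungs were above all earlier lungs of that arm, and the change was 1.50 ± 0.33 (SE, adjusted p = 0.00789), held whichever array was left out (1.28 to 1.65). The call was lost when the 2 groups were fitted alone. The 10% of probe sets in its band of F21 signal had a median change of 0.31 at 6 h. In room air the 6 h change was 0.58 (adjusted p = 0.535), and the difference between the arms in that change did not pass (0.92 ± 0.47 SE, adjusted p = 0.602). Against F21 lungs in room air as baseline, the 6 h lungs in 10% oxygen did not pass (adjusted p = 0.0612). In liver Hspa1a gave 21.4, 60.6 and 58 at F21, 77.3, 27.3 and 34.5 at 2 h and 8.0, 24.1 and 30.8 at 6 h and was below the filter there. Hspa1b gave 3.8 to 67.8 over all 33 arrays, below the filter in both organs. The coding sequences of Hspa1a and Hspa1b are nearly identical, and probes may not tell their messages apart.

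Hsp90aa1 encodes the inducible Hsp90 of the cytosol. At 2 h it gave 257, 279 and 206 in 10% oxygen, against 455, 639 and 526 in room air. The lungs in 10% oxygen were all lower, with a difference of -1.12 ± 0.29 (SE, adjusted p = 0.011) that held whichever array was left out and with the covariate (-1.52, adjusted p = 0.00737). Dnaja1, a J-domain co-chaperone of Hsc70, gave 171, 236 and 70.8 in 10% oxygen at 2 h, against 334, 275 and 374 in room air. It was lower, -1.20 ± 0.32 (SE, adjusted p = 0.0119), a value that was -0.69 (adjusted p = 0.093) without 2 h replicate 3 in 10% oxygen, the lowest array, and -1.09 (adjusted p = 0.0581) without 2 h replicate 3 in room air. In liver Hsp90aa1 gave 1252, 1162 and 912 at F21, 640.0, 425 and 545 at 2 h and 1007, 435 and 509 at 6 h. Only 6 h replicate 1 came up to the F21 range, and the changes, -1.05 (adjusted p = 0.1) at 2 h and -0.86 (adjusted p = 0.146) at 6 h, did not pass.

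**Figure D3:**
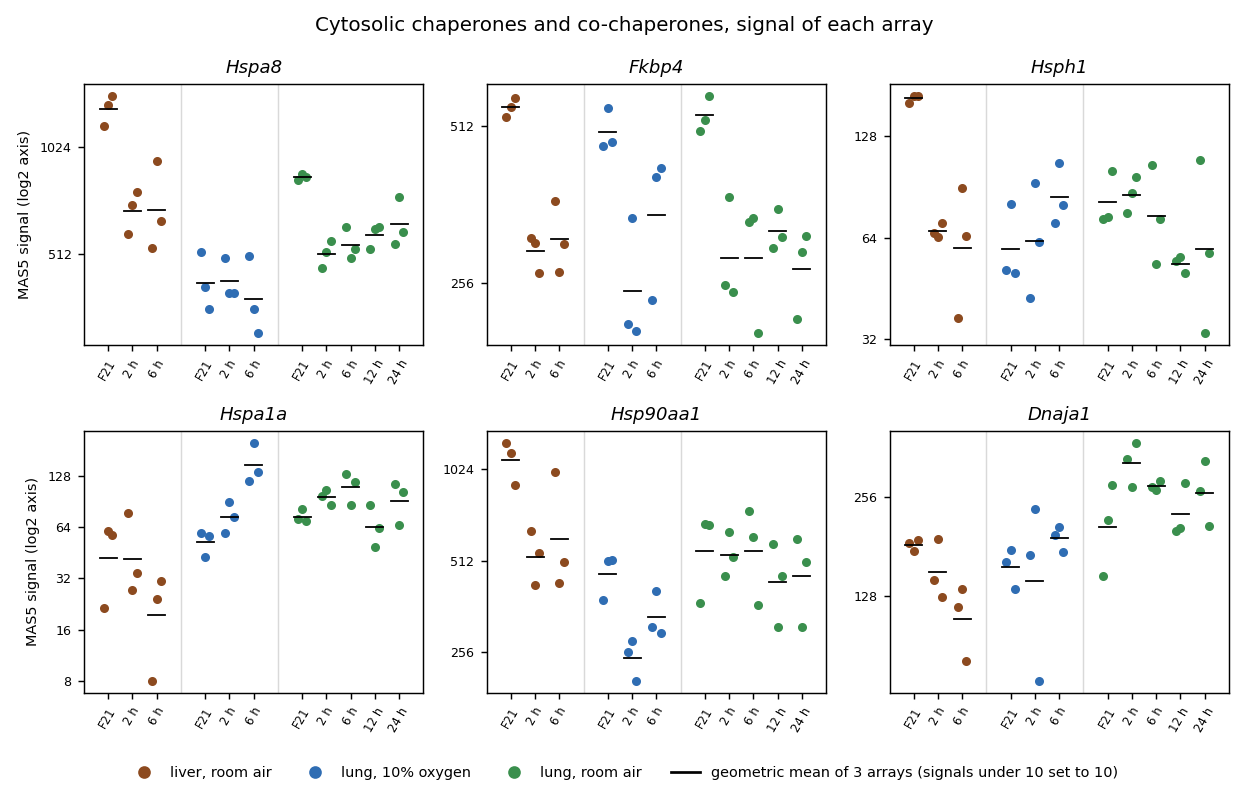
MAS5 signal of each array (y axis, log2 scale) for 6 cytosolic genes across the 11 groups (x axis: liver, lung in 10% oxygen, lung in room air, each in order of time), with black lines at geometric means of 3 arrays. For Hspa8, Fkbp4 and Hsph1 all 6 newborn livers lie below all 3 F21 livers, and for Hspa1a the 3 lungs at 6 h in 10% oxygen lie above all earlier lungs of that arm.

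The remaining cytosolic genes with a test (Hspa4, Dnajb1, St13, Stip1 and Cryab) passed in no comparison over time or oxygen by their brightest probe sets. Dimmer probe sets of Hspa4 and St13 did pass between 10% oxygen and room air. For Hspa4, an Hsp110, 1 of them was higher at F21 (2.14, adjusted p = 0.0172) and at 2 h (1.69, adjusted p = 0.034), where the brightest gave 0.94 (adjusted p = 0.224) and 0.03 (adjusted p = 0.976). For St13, an Hsc70 co-chaperone, 1 was lower at 6 h (-2.15, adjusted p = 0.0434), where the brightest gave -0.24 (adjusted p = 0.777). Stip1, the Hop adaptor between Hsc70 and Hsp90, changed by -1.72 (adjusted p = 0.293) in liver at 6 h. Cryab, a small heat shock protein abundant in muscle, was the 1 member lower in liver than in lung at F21, with signals of 51.6, 27.2 and 67.8 in liver against 148, 133 and 135 in lung and no overlap (-1.61 ± 0.52 SE, adjusted p = 0.0201). This call was lost without replicate 1 of the lungs or replicate 2 of the livers (adjusted p = 0.0583 and 0.124).

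TRiC is a double ring of 8 related subunits that folds actin and tubulin, and no subunit passed in liver after birth or over time in either lung arm. At an unadjusted p under 0.05, limma counted 0 and 1 of 7 tested subunits at 2 h and 6 h in liver and at most 2 of 7 at any time in lung. At 2 h Cct3 gave 177, 184 and 154 in 10% oxygen, against 71.3, 80.9 and 86.4 in room air, a difference of 1.11 ± 0.23 (SE, adjusted p = 0.00236) without overlap that held whichever array was left out. The other probe sets of Cct3 differed by -0.22 and 0.27, so the gene's probe sets disagree. At 6 h Cct8 gave 127, 99 and 107 in 10% oxygen, against 39.6, 31.8 and 41.5 in room air (1.56 ± 0.42 SE, adjusted p = 0.0288). The arrays did not overlap, yet the call was lost in 5 of 6 fits that left out 1 array (adjusted p up to 0.0943) and with the covariate (1.36, adjusted p = 0.142).

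At F21, 3 TRiC subunits were higher in liver than in lung. Cct3 gave 187, 304 and 258 in liver, against 116, 140.5 and 162 in lung (0.82 ± 0.24 SE, adjusted p = 0.00885). Cct7 gave 379, 412 and 445 against 277, 228 and 316 (0.60 ± 0.22 SE, adjusted p = 0.0423), and Tcp1 91.8, 184 and 113 against 16.7, 54.6 and 51.3 (1.78 ± 0.64 SE, adjusted p = 0.0358). None of the 3 overlapped between the organs. Leaving out 1 array ended the call in 2 of 6, 5 of 6 and 3 of 6 fits.

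All 3 mitochondrial chaperones were higher in liver than in lung before birth, and none changed past the threshold with time in either organ (at most 2 of 3 at an unadjusted p under 0.05, limma). Hspa9 encodes mortalin, the Hsp70 that pulls proteins into mitochondria, and Hspd1 and Hspe1 encode the 2 parts of the Hsp60 folding chamber. Before birth Hspa9 averaged 954 ± 108 in liver and 158 ± 11.5 in lung in room air (SD, n = 3 each). Hspd1 averaged 785 ± 185 in liver and 327 ± 39.2 in lung, and Hspe1 403 ± 65.5 in liver and 148 ± 59.7 in lung. Liver and lung did not overlap for any of the 3 genes, and the differences were 2.59 ± 0.27, 1.24 ± 0.25 and 1.51 ± 0.36 on the log2 scale (SE, adjusted p = 3.09e-09, 0.000231 and 0.0015), each held whichever array was left out. A second probe set of Hspd1, designed under relaxed rules, ran the other way at -1.07 (adjusted p = 0.0988).

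Hspa9 in liver had signals of 920.0, 1075 and 868 at F21, 584, 877 and 932 at 2 h and 508, 735 and 499 at 6 h. In lungs in room air it had 145, 167 and 162 at F21, 198, 202 and 228 at 2 h, 239.6, 285 and 263 at 6 h, 267, 245 and 157 at 12 h and 304, 171 and 216 at 24 h. The 6 h livers lay below the F21 livers and the 2 h and 6 h lungs above the F21 lungs, yet the 6 h changes of -0.73 (adjusted p = 0.101) in liver and 0.73 (adjusted p = 0.28) in lung did not pass, nor did the difference between the organs in that change (-1.46 ± 0.38 SE, adjusted p = 0.105). In 10% oxygen the lungs gave 121, 229.9 and 266 at F21, 221, 261 and 179.8 at 2 h and 165, 214 and 278 at 6 h, with all groups overlapping.

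Hspd1 and Hspe1 share a promoter region, and probe sets of both passed between the lung arms at 2 h. In 10% oxygen Hspe1 had 208, 259 and 283 at F21, 136, 128 and 58.2 at 2 h and 83.7, 203 and 172 at 6 h, against 95.2, 136 and 213 at F21, 262, 263 and 184 at 2 h and 121, 92.7 and 69 at 6 h in room air. Hspd1 had 260.1, 304 and 309 at F21, 179.5, 187 and 209.6 at 2 h and 174, 247 and 230.4 at 6 h in 10% oxygen, against 288, 328 and 366 at F21, 243, 248 and 256 at 2 h and 307, 246 and 173 at 6 h in room air. At 2 h all Hspe1 signals in 10% oxygen were below those in room air, -1.21 ± 0.39 (SE, adjusted p = 0.0372), and the brightest probe set of Hspd1 differed by -0.38 (adjusted p = 0.253). The second probe set of Hspd1, designed under relaxed rules, was lower in 10% oxygen, -1.32 (adjusted p = 0.0368), so the probe sets of Hspd1 disagree on the call. The Hspe1 difference was -1.93 with the covariate (adjusted p = 0.00723), and its call was lost in 4 of 6 fits that left out 1 array, with the smallest difference, -0.82 (adjusted p = 0.197), without 2 h replicate 3 in 10% oxygen. The change of Hspe1 over the first 2 h differed between 10% oxygen and room air by -2.04 ± 0.56 (SE, adjusted p = 0.115), which did not pass. In liver at 6 h Hspe1 changed by -0.49 (adjusted p = 0.322) and Hspd1 by -0.33 (adjusted p = 0.661).

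**Figure D4:**
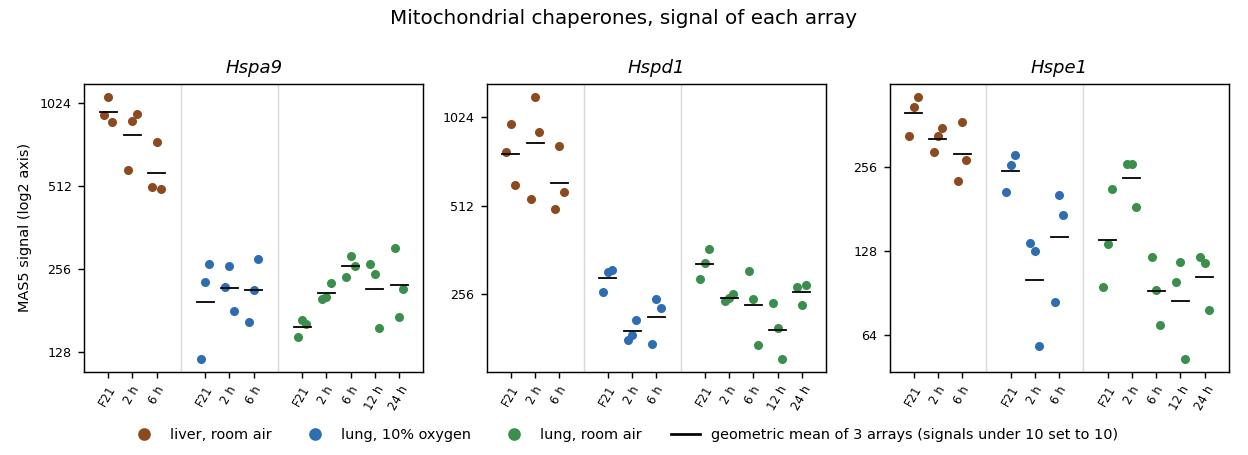
MAS5 signal of each array (y axis, log2 scale) for the 3 mitochondrial chaperones across the 11 groups (x axis: liver, lung in 10% oxygen, lung in room air, each in order of time), with black lines at geometric means of 3 arrays. All 9 livers are above all 24 lungs for Hspa9 and Hspd1, with means at F21 of 954 ± 108 in liver and 158 ± 11.5 in lung in room air for Hspa9.

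Of the 6 genes lower in liver at 6 h, Dnajc3, Hspa5, Hsp90b1 and Hspa8 were higher in liver than in lung at F21, while Hsph1, at 1.02 (adjusted p = 0.0519), and Fkbp4, at 0.05 (adjusted p = 0.904), did not pass. Against lung in room air, Hspa5 was higher by 1.19 ± 0.26 (SE, adjusted p = 0.0006), Hsp90b1 by 0.87 ± 0.17 (SE, adjusted p = 0.0002), Hspa8 by 0.64 ± 0.19 (SE, adjusted p = 0.0135) and Hsp90aa1 by 0.99 ± 0.30 (SE, adjusted p = 0.013). None of these overlapped between the organs. Hspa8 lost its call without F21 liver replicate 3 (0.57, adjusted p = 0.0575) and Hsp90aa1 without F21 lung replicate 1 (0.71, adjusted p = 0.12) or F21 liver replicate 1 (0.90, adjusted p = 0.0556). The comparison of liver over time shares the F21 livers with this one, so the 2 are not independent.

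Xbp1 is the factor that IRE1 activates by splicing its message, which was not analysed here. Its liver signals were 176, 247 and 226 at F21, 76.8, 82 and 100.3 at 2 h and 102, 154 and 94.8 at 6 h. In lungs in 10% oxygen they were 67.5, 149 and 48.6 at F21, 41.5, 109.9 and 46.4 at 2 h and 104, 124 and 85.1 at 6 h. In room air they were 106, 156 and 139 at F21, 237, 232 and 188 at 2 h, 151, 136 and 94 at 6 h, 131, 95.4 and 186 at 12 h and 79.6, 96.7 and 102 at 24 h. At 2 h every liver was below and every lung in room air above its own F21 group. Xbp1 was lower in liver at 2 h, -1.32 ± 0.26 (SE, adjusted p = 0.0311), while in lung in room air it changed by 0.72 (adjusted p = 0.347), and the difference between the organs passed, -2.04 ± 0.52 (SE, adjusted p = 0.047). It was the only member among 33 tested that passed this test of the change over 2 h, beside 0.929% of all probe sets, and the call was lost whichever of the 12 arrays was left out (-2.19 to -1.89, highest adjusted p 0.121). At 6 h no member passed that test (7 of 33 at an unadjusted p under 0.05), beside 0.196% of all probe sets (8.66% at an unadjusted p under 0.05).

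Between the arms Xbp1 was lower in 10% oxygen than in room air at 2 h, -1.87 ± 0.39 (SE, adjusted p = 0.00227), with no overlap, a call held whichever array was left out and with the covariate (-2.17, adjusted p = 0.00645). The change over the first 2 h did not differ past the threshold between the arms (-1.13, adjusted p = 0.386). No member passed for the difference between the arms at 2 h or 6 h (3 and 2 of 31 at an unadjusted p under 0.05), where 0.476% and 0.0144% of all probe sets did (13.1% and 8.58% at an unadjusted p under 0.05).

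Atf4 encodes the factor that drives amino acid and redox genes when translation is slowed. Lungs in 10% oxygen had 433, 275 and 424 at F21, 374, 527 and 349.9 at 2 h and 538, 566 and 547 at 6 h, with a 6 h change of 0.57 (adjusted p = 0.144). In lungs in room air it had 293, 428 and 338 at F21, 530.0, 384 and 429.5 at 2 h, 919.8, 775 and 764 at 6 h, 688, 640.0 and 535 at 12 h and 840.4, 464 and 510.3 at 24 h. In room air the 6 h lungs were above all F21 and 2 h lungs, and all 12 h and 24 h lungs were above all F21 lungs. The change in room air was 1.23 ± 0.23 (SE, adjusted p = 0.00768) at 6 h, 0.83 (adjusted p = 0.08) at 12 h and 0.75 (adjusted p = 0.152) at 24 h. Without F21 replicate 1 the 6 h change was 1.10 (adjusted p = 0.0608) and without 6 h replicate 1 it was 1.14 (adjusted p = 0.0572). On the same 6 h arrays in room air the 7 neutrophil markers summed to 1597 to 2573, against 445 to 677 at F21, and S100a8, S100a9 and the macrophage marker Cd14 were higher (3.04, 2.95 and 1.45, adjusted p = 8.75e-07, 0.000694 and 0.00442). These were 2 of 6 neutrophil markers and 1 of 5 macrophage markers tested. The median change was 0.61 for the neutrophil list and 0.68 for the macrophage list. The part of these cells in the Atf4 change was not tested. The difference between the arms in the 6 h change of Atf4 did not pass (-0.65, adjusted p = 0.595). Livers had 616, 539 and 631 at F21, 624, 519.6 and 508 at 2 h and 660.3, 476 and 536 at 6 h, with all groups overlapping. The difference in the 6 h change between liver and lung in room air missed the threshold (-1.33 ± 0.30 SE, adjusted p = 0.0536). At F21 Atf4 was higher in liver than in lung, 0.77 ± 0.21 (SE, adjusted p = 0.00646).

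Ddit3 encodes CHOP, a factor that Atf4 induces. Its signals were 61.2, 97.4 and 19.5 at F21, 63.6, 18.2 and 26.5 at 2 h and 59.8, 128 and 86 at 6 h in liver, and 9.1 to 128.3 over all 33 arrays. The groups overlapped, the gene was below the filter in lung, and in liver it changed by 0.84 (adjusted p = 0.662) at 6 h.

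**Figure D5:**
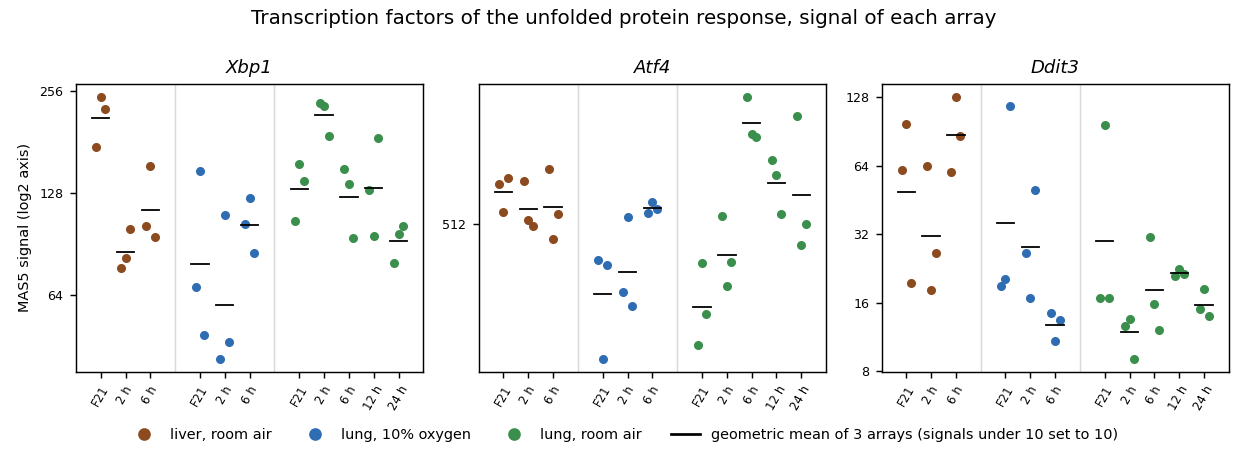
MAS5 signal of each array (y axis, log2 scale) for the 3 factors of the unfolded protein response across the 11 groups (x axis: liver, lung in 10% oxygen, lung in room air, each in order of time), with black lines at geometric means of 3 arrays. At 2 h Xbp1 is low in liver and in 10% oxygen and high in room air, and Atf4 has its highest group mean in the 6 h lungs in room air, with signals of 919.8, 775 and 764.

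The changes after birth stood beside other shifts of the same arrays. In room air the brightest 10% of probe sets, which holds Hspa8, Fkbp4 and Hsp90b1, had a median change of -0.32 at 2 h, the 3 type 2 cell markers summed to 22331 to 24419 at 2 h, against 47065 to 59352 at F21, and the 6 erythroid markers to 14997 to 19486, against 31595 to 37096. Of 2 type 2 cell markers tested there, only Sftpc was called (-1.33, adjusted p = 0.00428). The median over the 3 was -0.08, so their sum does not stand for the list. Of 5 erythroid markers tested, only Hba-a1 was called (-1.05, adjusted p = 0.0356), and the median over the 6 was -0.42. In lungs in 10% oxygen the brightest 10% of probe sets had a median change of -0.17 at 2 h and -0.28 at 6 h, against which Hsp90b1 changed by -1.05 ± 0.17 and -1.48 ± 0.17. In that arm the 4 fibroblast markers summed to 2344 to 2949 at 6 h, against 4405 to 4961 at F21, with Col1a1, Col1a2 and Col3a1 lower (-0.78, -0.80 and -0.83, adjusted p = 0.0275, 0.0127 and 0.0113), and Scgb1a1 and Lyz2 were higher (3.47 and 2.30, adjusted p = 0.000302 and 0.00146). In liver the brightest 10% of probe sets changed by -0.09 at both times, the hepatocyte markers summed to 113213 to 129171 at 6 h, against 126367 to 137733 at F21, and the 6 erythroid markers, most of whose signal is Hba-a1, to 47645 to 54769, against 44502 to 54353. Of 5 erythroid markers tested in liver at 6 h, Alas2, the heme synthesis enzyme of red cells, and Slc4a1, their anion exchanger, were higher (0.66 and 0.90, adjusted p = 0.0179 and 0.0348), and the median over the 6 was 0.53. The part of these shifts in the members' changes was not tested.

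Other genes of the same pathways, from lists drawn up with earlier results of these data known, were counted in the same fits. Among other ER folding and secretion genes, 5 of 46 tested were lower in liver at 6 h and none higher, beside 0.949% of all probe sets lower and 1.84% called. They include Manf, an ER stress-induced secreted protein (-1.17, adjusted p = 0.00617), Mcfd2, a cargo receptor subunit (-0.87, adjusted p = 0.0129), Sec61a1, the channel through which proteins enter the ER (-0.58, adjusted p = 0.0412), and Creld2, an ER stress-induced protein (-1.19, adjusted p = 0.0428). The window of Creld2 also holds the ER stress element. Those of Mcfd2 and of Fkbp11, the other gene lower at 6 h, hold none, nor do those of Txndc5. No window was at hand for Manf or Sec61a1. The median change of the whole list was -0.21 over the genes with a probe set. At 2 h, 1 of 46 was lower, Txndc5, a disulfide isomerase (-0.97, adjusted p = 0.0161), beside 0.263% of all probe sets. Among other cytosolic chaperones and co-chaperones 0 of 27 passed in liver at either time with limma (2 and 0 at an unadjusted p under 0.05 at 2 h and 6 h). Of the other genes of the unfolded protein response, 0 of 13 passed in liver (2 at an unadjusted p under 0.05 at each time). All probe sets at an unadjusted p under 0.05 made up 12.1% at 2 h and 13.4% at 6 h.

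In lung in room air at 2 h, 1 of 52 other ER genes was lower, Manf again (-1.08, adjusted p = 0.0388), and 1 of 15 other genes of the unfolded protein response was higher, Atf3, a stress-induced factor downstream of Atf4 (3.04, adjusted p = 0.0149), beside 4.24% of all probe sets called. Atf3 was also higher at 2 h in 10% oxygen (2.80, adjusted p = 0.0315), and its probe set holds probes shared within a sequence family. At 12 h and 24 h in room air 1 of 52 other ER genes was lower, Serpinh1 (-1.42 and -1.33, adjusted p = 0.00485 and 0.0128). Serpinh1 was also the only 1 of them called at 6 h in 10% oxygen (-1.22, adjusted p = 0.00404). All probe sets called at these times made up 1.34%, 0.577% and 6.31%. Of 31 other cytosolic genes 1 was lower at 12 h in room air, Nap1l1 (-1.18, adjusted p = 0.031). Nap1l1 was also the only 1 of them called at 2 h and 6 h in 10% oxygen (-1.47 and -1.09, adjusted p = 0.00485 and 0.0179). All probe sets called there made up 1.34%, 2.65% and 6.31%. Between 10% oxygen and room air, 1 of 52 other ER genes was lower and none higher at F21. At 2 h, 5 were lower and 3 higher (median difference -0.05). At 6 h none was lower and 1 higher (median -0.01). All probe sets called made up 7.13%, 16.8% and 5.8%. For liver against lung in room air at F21, 11 of 53 other ER genes were higher and 9 lower (median 0.14). Of 31 other cytosolic genes 0 were higher and 3 lower, and of 16 other genes of the unfolded protein response 5 were higher and 3 lower. All probe sets called made up 28%. Among the other mitochondrial chaperones and proteases, 2 of 7 tested were higher in liver than in lung at F21, beside 11.9% of all probe sets higher. In 10% oxygen against room air, 2 of 5 were higher at 2 h and 1 of 5 at 6 h, beside 16.8% and 5.8% called. Lonp1, the matrix protease, was among them each time (2.01, 2.52 and 2.06, adjusted p = 0.00112, 0.00235 and 0.0238). Its fit with the Gapdh ratio as a covariate is not given here.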

How the data were processed

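Whole lung and liver RNA from 33 mouse samples in 11 groups of 3 was measured on Affymetrix MGU74Av2 arrays. The deposited values are MAS5 signals, an intensity per probe set on a linear scale, for which the authors set the target of each chip to 100, per the study's methods. The trimmed means of the arrays were 100 to 100.1. Arrays have no read depth, and 3 arrays a group limit the precision. Of 12488 probe sets, 66 controls were left out. GEO's platform annotation, which can be old, gave 1 gene for 10833 probe sets, several for 396 and none for 1193, and only probe sets with 1 gene were named.

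Signals under 10 were set to 10 and log2 was taken. Probe sets among the top 40% of signals in at least 3 arrays of a fit were tested: 6931 over the 24 lung arrays, 5693 over the 9 liver arrays and 7640 over all 33. Group means were compared with limma 3.58.1 in R 4.3.3 (lmFit, eBayes with trend, 16, 6 and 22 residual degrees of freedom) with Benjamini-Hochberg adjustment over all probe sets tested in a fit, in 16 comparisons. The fit was tested on simulated data. The study's own design, an unadjusted test at p under 0.01, is an alternative here, as are quantile normalization, array weights, other floors and filters, the groups compared only, a replicate block and leaving out each array. The Gapdh 3′:5′ ratio as a covariate and a fit of the lungs in room air alone were chosen after seeing the data.

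The members and lists were chosen with earlier results of these data known. Signals of single arrays are given for up to 5 members per class with the smallest adjusted p. They are also given for Hspa1a, Hspa5, Hspd1, Xbp1, Atf4 and Ddit3. For some of these genes only part of the groups is given, or a mean or range. Hspa1b is given as a range. Hsph1 and Pdia6 were named outside this rule after their values were seen, and the signals given for Cryab also fall outside it. Promoter windows are from RefSeq. Protein sequences and Xbp1 splicing were not analysed here.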

Additional observations from a re-analysis of the deposited data

Results flagged for a closer look

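The change of Xbp1 over the first 2 h differed between organs: liver minus lung in room air was -2.04 on the log2 scale (SE 0.52, adjusted p = 0.047, limma). All 3 livers at 2 h lay below, and all 3 lungs at 2 h above, the F21 arrays of their organ. The call was lost in 12 of 12 fits that left out 1 array, with values of -2.19 to -1.89, and with quantile normalization or no filter on low signals.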

How the results depend on the processing

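No called change of a member reversed under any alternative run. Counts of members called that moved by over 1.5 times are given here under the alternative, with the planned count in brackets where it is repeated. With 1 array left out, the counts ranged over 0 to 2 (3 with all arrays) at 2 h and 0 to 1 (1) at 6 h in lung in room air, 1 to 2 (2) at 2 h and 2 to 4 (2) at 6 h in 10% oxygen, 1 to 3 (3), 3 to 7 (7) and 1 to 6 (5) for 10% oxygen against room air at F21, 2 h and 6 h, 0 to 2 (3) and 1 to 4 (6) in liver at 2 h and 6 h, and 8 to 13 (13) for liver against lung at F21. For liver against lung over time they were 0 to 0 (1) at 2 h and 0 to 1 (0) at 6 h. For room air at 12 h and 24 h and for the difference between the arms they stayed at 0.

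Without the filter on low signals no member passed in liver at 2 h (3 as planned), in liver at 6 h (6) or for liver against lung at 2 h (1). Array weights gave 8, 5, 4 and 1 members at 2, 6, 12 and 24 h in room air, 1 at 2 h in 10% oxygen, 5 in liver at 2 h and 2 for liver against lung over 6 h. Fitting each pair of groups alone gave 1 at 12 h in room air, 1 at each time in 10% oxygen, 0 for 10% oxygen against room air at 6 h, 5 in liver at 2 h and 2 for liver against lung over 6 h. Fits of the lungs in room air alone gave 5, 3 and 1 (Pdia4) at 2, 6 and 12 h. F21 lungs in room air as baseline gave 8 and 7 at 2 h and 6 h in 10% oxygen. With the Gapdh ratio as a covariate the counts were 2 at 6 h and 1 at 24 h in room air, and 0 and 3 at F21 and 6 h for 10% oxygen against room air. Quantile normalization gave 2 at 6 h in room air, 2 for 10% oxygen against room air at 6 h and 0 for liver against lung over 2 h. A pseudocount of 16 gave 1 at 12 h in room air and 1 for liver against lung over 6 h. A filter on the top 30% by median gave 2 at 6 h and 1 at 24 h in room air, 1 at 6 h in 10% oxygen, 3 for 10% oxygen against room air at 6 h and 1 for liver against lung over 6 h.

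The methods' t-test at an unadjusted p under 0.01 called 5, 4, 4 and 2 members at 2, 6, 12 and 24 h in room air, 3 for 10% oxygen against room air at 6 h, 5 and 3 in liver at 2 h and 6 h and 7 for liver against lung at F21. After Benjamini-Hochberg adjustment it called 0 in each comparison over time, 0, 1 and 0 for 10% oxygen against room air at F21, 2 h and 6 h, and 7 for liver against lung at F21.

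Arrays with the same replicate number did not deviate together (median r = 0.002 over 84 lung pairs and 0.013 over 9 liver pairs), so the numbers were not taken to pair the samples. The replicate block gave 1 at 24 h in room air, 6 in liver at 2 h and 1 for liver against lung over 6 h. The cause of these moves was not tested. Signals near the floor of 10 bound Hyou1, Calr, Hspb1, Hspa1b and Dnajb9, and 3 arrays a group with RNA of uneven quality limit what the 10% oxygen lungs can show.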
